A study of Homo sapiens with 4 samples.

Results

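The genes described here are 10 genes of the acute-phase response, the complement system and epithelial defence in PC3 cells: C3, CFB, SAA1, SAA2, SERPINA1, SERPINA3, LCN2, S100A8, S100A9 and PIGR. They were 10 of the 43622 genes of the deposited table and were taken by name. The list was chosen by hand with the levels in these same libraries already known, so the differences between conditions are given for the 10 genes as a description, with standard errors and without p-values. Calls at the threshold are mentioned for these genes only as part of that description. Of the 10 genes, 8 averaged 0.1 TPM or more across all 12 libraries and entered the fits, whereas S100A8 and PIGR did not.

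RNA-seq was performed on PC3, an established human prostate adenocarcinoma cell line, and on PC3-shp14ARF, a derivative stably carrying a retroviral short hairpin RNA against p14ARF, the tumor suppressor encoded by the alternative reading frame of CDKN2A. The 4 conditions, with 3 libraries each, were PC3 with the vehicle DMSO (Ctrl), PC3 with 1 µM MLN4924 (MLN), PC3-shp14ARF with DMSO (shARF) and PC3-shp14ARF with 1 µM MLN4924 (Both), all for 3 days. MLN4924 inhibits the NEDD8-activating enzyme and thereby the NEDDylation of cullins and other proteins. The sources used here name no control hairpin for the Ctrl and MLN cells and say that the transduced cells were selected with hygromycin, and they do not say whether libraries of a condition came from separate cultures, so the errors may cover technical spread only. The series' design text speaks of a knockout and of another concentration unit than the sample labels, and the labels were followed. Values are TPM, a measure of transcript abundance corrected for transcript length and scaled by the authors to the same total in every library, so the read depth behind a value is unknown and no counting interval can be given.

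The acute-phase response is the change in secreted proteins that follows inflammation, and it is best known from the liver, where interleukin 1, tumor necrosis factor and interleukin 6 raise the transcription of its genes through NF-kB, C/EBP and STAT3 factors. The complement system is a cascade of secreted proteases and opsonins, and many epithelia make its components themselves. Epithelia also secrete proteins that bind iron carriers of bacteria, sequester metal ions, inhibit the proteases of neutrophils or carry antibodies to the lumen.

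CDKN2A, the gene targeted by the hairpin, had 190, 183 and 177 TPM in the Ctrl libraries and 58.2, 58.7 and 60.9 TPM in the shARF libraries. It had 100, 133 and 119 TPM in the MLN libraries and 47.2, 41.2 and 54.0 TPM in the Both libraries. All shARF libraries were below all Ctrl libraries, and all Both libraries were below all MLN libraries. These are values for the whole gene, so the p14ARF transcript is not separated from the other transcripts of CDKN2A. Libraries of a condition correlated with a Pearson's r of at least 0.974 across genes. The 6 epithelial markers EPCAM, CDH1, KRT7, KRT8, KRT18 and KRT19 were present in every library and summed to between 911 and 1008 TPM in Ctrl, between 441 and 507 TPM in MLN, between 1142 and 1284 TPM in shARF and between 435 and 451 TPM in Both. The 8 myeloid and neutrophil markers summed to between 0.384 and 1.20 TPM per library, with ELANE and TYROBP at 0 throughout. The 4 hepatocyte markers summed to between 0.265 and 0.651 TPM in Ctrl and to at most 3.18 TPM elsewhere, with APOB at 0 throughout. In MLN most of this sum was FGB, with a mean of 2.67 TPM. The 3 fibroblast markers summed to between 7.06 and 8.49 TPM in Ctrl, 17.9 and 20.6 TPM in MLN, 3.80 and 4.88 TPM in shARF and 5.85 and 6.77 TPM in Both. Nearly all of the fibroblast sum was COL1A1, with means of 7.27 TPM in Ctrl and 18.2 TPM in MLN. The 3 plasma cell markers, nearly all of it the epithelial gene SDC1, summed to between 157 and 366 TPM. The part of these marker levels in the results was not tested.

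The sequence in front of the start site is shown for 3 of the genes, because LCN2 was the most abundant of the 10 in Ctrl, CFB changed least among those with more than 1 TPM throughout, and S100A9 was the one of the 8 fitted genes with its highest level in shARF. Of the 10 genes, 7 had an entry among the RefSeq promoter windows of 300 bases used here (GRCh38.p14), and C3, SAA1 and SAA2 had none. A set of 4 motifs linked to the inducing pathways and to the start site were searched on both strands: the kappaB motif, the C/EBP motif TTGCNNAA, the STAT motif TTCNNNGAA and the TATA box TATAAA. For LCN2 the run is chr9:128149265-128149440 on the plus strand, which lies outside annotated exons and ends 13 bases before the RefSeq start. Its capitals mark a kappaB match, read on the opposite strand, 175 to 166 bases before the start and a C/EBP match 143 to 136 bases before the start. For CFB the 30 bases chr6:31945992-31946021 on the plus strand are shown, with the STAT match 92 to 84 bases before the start in capitals. Of the 250 bases before this CFB start, 120 lie in annotated exons. The LCN2 and CFB stretches both lie inside the annotated gene spans, which begin at 128149071 and 31945650. For S100A9 the run is chr1:153357604-153357853 on the plus strand, with a TATA box 29 to 24 bases before the start in capitals.
LCN2: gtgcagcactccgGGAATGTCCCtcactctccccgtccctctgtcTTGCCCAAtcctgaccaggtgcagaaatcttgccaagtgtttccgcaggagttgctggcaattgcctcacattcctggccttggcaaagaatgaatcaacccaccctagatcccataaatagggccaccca
CFB: ccgcttggatgTTCCGGGAAagtgatgtgg
S100A9: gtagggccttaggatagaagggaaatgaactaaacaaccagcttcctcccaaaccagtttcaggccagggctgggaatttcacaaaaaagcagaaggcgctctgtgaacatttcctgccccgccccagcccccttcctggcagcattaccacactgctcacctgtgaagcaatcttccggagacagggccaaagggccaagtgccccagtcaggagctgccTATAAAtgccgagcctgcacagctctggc
CFB also had a TATA box 30 to 25 bases before its start. The same TATA box of S100A8 lay in overlapping windows with different starts, 29 to 24 bases before a start and 126 to 121 bases before another. The windows of SERPINA1, SERPINA3 and PIGR held none of the 4 motifs. Of 35116 such windows of all genes, 5.91% held a kappaB match, 10.5% a C/EBP match, 7.66% a STAT match and 11.5% a TATA box. No binding was measured, and a match describes letters only.

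C3, the central protein of the complement cascade, is encoded on the minus strand of chromosome 19 from 6677704 to 6730562 (GRCh38). It had 281, 257 and 265 TPM in the Ctrl libraries, 13.9, 16.1 and 15.2 TPM in MLN, 0.662, 0.299 and 0.438 TPM in shARF, and 0.288, 0.474 and 0.333 TPM in Both. The Ctrl libraries were the highest and the MLN libraries came next, with no overlap between any of these and the shARF or Both libraries, which overlapped each other. Its median rank by TPM among all genes was 552 in Ctrl and 7800 in MLN, and 15804 in shARF and 16678 in Both. On the log2(TPM + 0.1) scale, C3 differed by −4.14 ± 0.068 (SE) in MLN vs Ctrl, −8.93 ± 0.24 in shARF vs Ctrl, −5.05 ± 0.18 in Both vs MLN and −0.25 ± 0.31 in Both vs shARF.

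CFB encodes factor B, which binds activated C3 and supplies the protease of the alternative pathway convertase. It lies on the plus strand of chromosome 6 from 31945650 to 31952086. The CFB level was 8.91, 8.41 and 8.15 TPM in Ctrl, 6.70, 5.24 and 4.65 TPM in MLN, 2.77, 3.08 and 2.67 TPM in shARF, and 3.12, 3.74 and 4.03 TPM in Both. The conditions stood in the order Ctrl, MLN, Both and shARF without overlap between neighbours, but over a far smaller range than C3. The CFB difference was −0.63 ± 0.14 in MLN vs Ctrl, −1.55 ± 0.082 in shARF vs Ctrl, −0.59 ± 0.17 in Both vs MLN and 0.34 ± 0.13 in Both vs shARF (log2). In the CFB transcript, 90.7% of the 50-base stretches were shared with the overlapping gene model ENSG00000244255, which was not analysed here, so how reads were divided between them is uncertain.

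SAA1 and SAA2 encode the serum amyloid A proteins that rise most in the acute phase, and they lie on chromosome 11, SAA1 on the plus strand from 18266260 to 18269977 and SAA2 on the minus strand from 18239223 to 18248668. SAA1 had 69.2, 80.2 and 68.5 TPM in Ctrl and 0.772, 0.590 and 0.394 TPM in MLN. It was listed at 0 in all 3 shARF libraries and in 2 of the 3 Both libraries, the other having 0.199 TPM. SAA2 was at 12.1, 16.5 and 13.8 TPM in Ctrl and at 0.265, 0.135 and 0.135 TPM in MLN. It was listed at 0 in all 3 shARF libraries and had 0.0672, 0 and 0.0656 TPM in Both. Both genes were thus highest in every Ctrl library, about 2 orders of magnitude lower in MLN, and at or near the bottom of the table in the PC3-shp14ARF cells. The MLN vs Ctrl difference was −6.76 ± 0.21 for SAA1 and −5.70 ± 0.23 for SAA2 (log2). No fold is given for comparisons with shARF, where both genes are listed at 0. Between Both and MLN the difference was −2.21 ± 0.51 for SAA1 and −0.96 ± 0.34 for SAA2, both from levels under 1 TPM. SAA1 shared 22.6% and SAA2 22.5% of their 50-base stretches with each other and with the read-through gene SAA2-SAA4, which had means of 5.74 TPM in Ctrl and 0.203 TPM in MLN and was listed at 0 in shARF and Both. How the authors' counting divided reads among these 3 genes is uncertain, and all 3 were highest in Ctrl and next highest in MLN.

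SERPINA1 encodes alpha-1-antitrypsin, the main inhibitor of neutrophil elastase, on the minus strand of chromosome 14 from 94376747 to 94390693. It had 52.0, 41.3 and 46.3 TPM in Ctrl, 4.88, 6.96 and 7.23 TPM in MLN, 7.67, 7.42 and 7.16 TPM in shARF, and 0.825, 1.08 and 1.22 TPM in Both. Every Ctrl library was above all others, the MLN and shARF libraries overlapped, and every Both library was the lowest. The SERPINA1 differences were −2.87 ± 0.17 in MLN vs Ctrl, −2.63 ± 0.091 in shARF vs Ctrl, −2.49 ± 0.22 in Both vs MLN and −2.73 ± 0.16 in Both vs shARF. It was the only one of the 8 fitted genes with a difference below −2 in all 4 comparisons. SERPINA3, which encodes the inhibitor alpha-1-antichymotrypsin, lies on the plus strand of the same chromosome from 94612384 to 94624055. SERPINA3 was low throughout, with 0.499, 0.388 and 0.364 TPM in Ctrl, 0.0295, 0.0300 and 0.0301 TPM in MLN, 0.0629, 0.0310 and 0.0317 TPM in shARF, and 0, 0.0303 and 0 TPM in Both. Only the Ctrl libraries stood apart, and with values this small the SERPINA3 difference depended on the pseudocount, from −0.46 at a pseudocount of 1 to −3.41 at 0.01 in MLN vs Ctrl. Of its 50-base stretches, 56.6% were shared with the gene model ENSG00000273259, which was not analysed here.

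LCN2 encodes lipocalin 2, which binds the iron carriers of bacteria, on the plus strand of chromosome 9 from 128149071 to 128153453. It had 2879, 2678 and 2758 TPM in the Ctrl libraries, where its median rank was 25 among all genes. It had 73.4, 79.2 and 83.9 TPM in MLN (median rank 2365), 6.21, 6.71 and 7.95 TPM in shARF (10049) and 5.90, 4.85 and 5.76 TPM in Both (10434). The conditions followed the order Ctrl, MLN, shARF and Both without overlap, although the shARF and Both libraries were close to each other. The difference in LCN2 was −5.14 ± 0.068 in MLN vs Ctrl, −8.63 ± 0.097 in shARF vs Ctrl, −3.82 ± 0.096 in Both vs MLN and −0.33 ± 0.13 in Both vs shARF. LCN2 alone made up most of the summed TPM of the 10 genes in Ctrl, which was between 3107 and 3322 TPM, against 109 to 118 TPM in MLN, 241 to 260 TPM in shARF and 58.0 to 65.2 TPM in Both.

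S100A9 encodes a calcium-binding protein that forms calprotectin with the S100A8 protein and sequesters zinc and manganese. It lies on the plus strand of chromosome 1 from 153357854 to 153361023. S100A9 had 18.4, 25.1 and 19.5 TPM in Ctrl, 8.70, 6.77 and 6.01 TPM in MLN, 223, 231 and 242 TPM in shARF, and 47.8, 53.4 and 53.7 TPM in Both. In contrast to the other 7 genes fitted, it was highest in shARF, and Both was above Ctrl, with MLN lowest and no overlap between conditions. Its median rank was 6904 in Ctrl and 10314 in MLN, and 702 in shARF and 3347 in Both. S100A9 differed by −1.54 ± 0.18 in MLN vs Ctrl, 3.47 ± 0.13 in shARF vs Ctrl, 2.85 ± 0.14 in Both vs MLN and −2.17 ± 0.060 in Both vs shARF. It was therefore higher with the hairpin, with and without MLN4924, and lower with MLN4924 in both kinds of cells.

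S100A8, the partner of S100A9, lies on the minus strand of chromosome 1 from 153390032 to 153391073 and was listed at 0 in 10 of the 12 libraries. The other two were shARF libraries with 0.156 and 0.154 TPM, the third shARF library being at 0. PIGR encodes the polymeric immunoglobulin receptor, which carries dimeric IgA across epithelia, on the minus strand of the same chromosome from 206928522 to 206946466. PIGR had 0.179, 0.273 and 0.139 TPM in Ctrl, 0.0674, 0.0687 and 0.138 TPM in MLN, 0, 0.0355 and 0.0363 TPM in shARF, and 0.0342, 0 and 0.1001 TPM in Both. The Ctrl libraries had its highest values, but the lowest of them was within 0.01 TPM of the highest MLN library, and the other conditions overlapped. Neither gene passed the filter on low values.

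The question of MLN vs Ctrl is the effect of blocked NEDDylation in PC3 cells. All 8 genes that could be fitted were lower in MLN and none was higher at an adjusted p below 0.05, in a comparison where 29.4% of the 19932 genes tested were called lower and 32.2% higher. The genes were selected on these levels, so nothing is read from their counts in this or the other comparisons. SERPINA3 had means of 0.417 TPM in Ctrl and at most 0.042 TPM elsewhere, and SAA2 of 14.1 TPM in Ctrl and at most 0.18 TPM elsewhere. Each passed the filter only through its Ctrl libraries, so a lower level than in Ctrl was built in by the filter. The median difference of the 8 genes, with these included, was −3.50, against 0.052 for all genes tested (log2). It describes genes selected on these levels and supports nothing. The differences ran from −0.63 for CFB to −6.76 for SAA1. In bulk samples such as these, fewer expressing cells and less RNA per cell cannot be told apart.

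The comparison of shARF with Ctrl asks what the hairpin changed without the drug. Here 7 of the 8 genes were called lower and S100A9 was called higher, where 20.4% of all genes were called lower and 21% higher. The 7 include SAA1 and SAA2, which were listed at 0 in shARF, and without them the other 6 genes had a median difference of −2.25, against 0 for all genes. The 6 still include SERPINA3, which passed the filter only through Ctrl. LCN2 and C3 had differences of −8.63 and −8.93 here, beside −5.14 and −4.14 in MLN vs Ctrl, and SERPINA1 had −2.63 beside −2.87. The Ctrl libraries are shared by these comparisons, so they are not independent of each other.

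Both vs MLN asks what the hairpin changed in the presence of MLN4924. LCN2, C3, SAA1, SERPINA1 and CFB were called lower and S100A9 higher, where 20.6% of all genes were called lower and 11.8% higher, and SAA2 and SERPINA3 were not called (SAA2 was when the 12 libraries were fitted together). The median over the 8 genes was −1.58, against −0.080 for all genes. The CFB call held under 3 of 13 alternative settings and was lost when any one of the 6 libraries was left out, with differences between −0.70 and −0.44. The SAA1 call was lost under 5 of 13, among them without MLN replicate 1 or 2 or without Both replicate 2 or 4, with differences between −2.74 and −1.95 over the 6 fits that leave out a library.

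Both vs shARF asks what MLN4924 changed in cells with the hairpin. Only SERPINA1 and S100A9 were called, both lower, where 32.8% of all genes were called lower and 28.3% higher. The differences in LCN2, C3, SERPINA3 and CFB were not called and lay between −0.37 and 0.34, and SAA1 and SAA2 were at or near 0 TPM in both conditions. Without SAA1 and SAA2 the median was −0.35, against −0.038 for all genes. LCN2 was called under 2 of 13 alternative settings, with the same difference of −0.33, and CFB under 2, one of them without Both replicate 2, where its difference was 0.44.

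**Figure D1:**
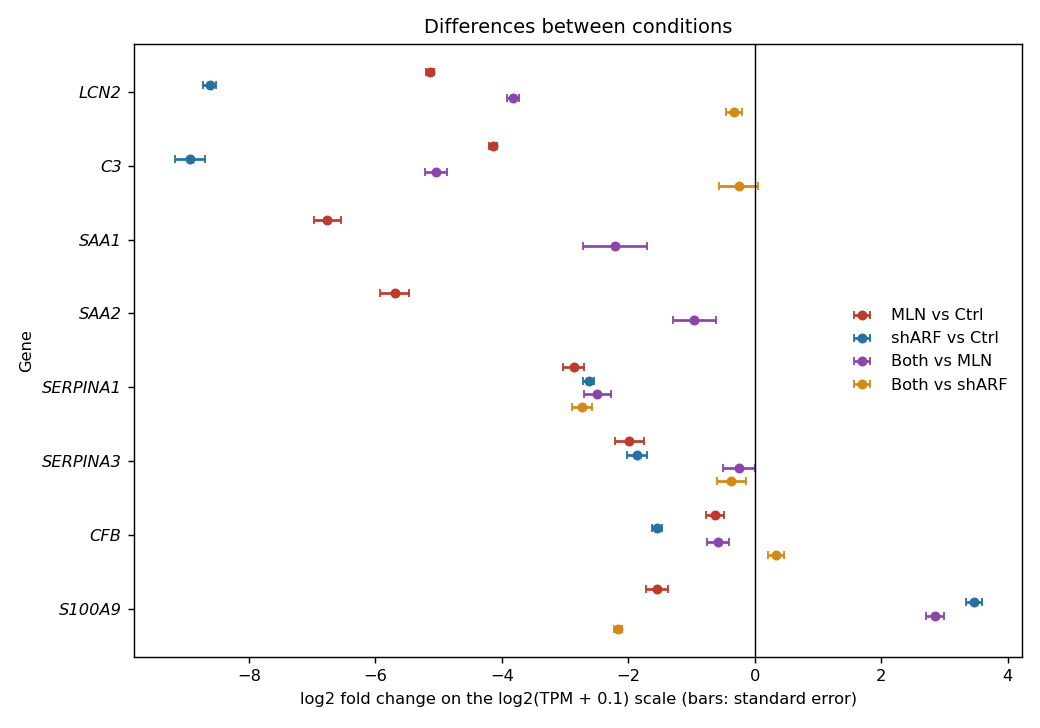
Difference between conditions for the 8 genes that passed the filter, as log2 fold change on the log2(TPM + 0.1) scale with standard errors, in 4 comparisons. SERPINA1 sat between −2.49 and −2.87 in all 4, S100A9 was above 0 in shARF vs Ctrl and Both vs MLN only, and SAA1 and SAA2 are left out where shARF is listed at 0.

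The response to MLN4924 was also compared between the cells with and without the hairpin, as Both vs shARF minus MLN vs Ctrl, in one fit of the 12 libraries. Of all genes, 11.2% were called above 0 and 17.1% below 0. Among the 8 genes, 6 were called above 0, S100A9 was called below 0, and SERPINA1 was not called at 0.14 ± 0.23. LCN2 had a value of 4.81 ± 0.14 and C3 of 3.89 ± 0.29, where MLN vs Ctrl gave −5.14 and −4.14 and Both vs shARF gave −0.33 and −0.25. C3 had a mean of only 0.466 TPM in shARF, so with 0.1 TPM added a fall as large as −4.14 could not show there. The C3 value is therefore set in part by this floor. CFB had 0.96 ± 0.20, SERPINA3 1.62 ± 0.51 and S100A9 −0.62 ± 0.19, and the values of SAA1 and SAA2 are not given because shARF is listed at 0. The SERPINA3 value was called under 10 of 18 alternative settings and the S100A9 value under 12 of 19. The SERPINA3 call was lost without Ctrl replicate 1, 2 or 3, shARF replicate 3 or 5 or Both replicate 3, with values between 1.49 and 1.72 over all fits that leave out a library. Over all 18 settings the SERPINA3 value lay between 0.41 and 1.78. SERPINA3 had means of 0.030, 0.042 and 0.010 TPM in MLN, shARF and Both, so its value mainly restates that Ctrl stood above levels near 0. The S100A9 call was lost without Ctrl replicate 1 or 3, shARF replicate 5 or Both replicate 2, with values between −0.76 and −0.48 over all such fits. These values and the shARF vs Ctrl differences share the Ctrl and shARF libraries, so they are not independent of each other.

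Across the 12 libraries, 7 of the 8 genes correlated positively with each other, and S100A9 correlated negatively with all of them. The correlation of log2(TPM + 0.1) was 0.988 for LCN2 and C3, 0.982 for SAA1 and SAA2 and 0.976 for LCN2 and SAA1, and S100A9 had values from −0.212 with SERPINA1 to −0.715 with CFB. SERPINA1 was less close to LCN2 (0.864) and to CFB (0.682). These correlations describe 12 libraries in 4 clusters and carry no test. Among 14656 other genes with at least 1 TPM on average, the pattern of LCN2 was most like those of KRT6B (0.9964), DNER (0.9963) and TGFBR2 (0.9948), and the pattern of C3 most like those of ASB2 (0.9971), IGF2 (0.9946) and FZD1 (0.9939). LIF, a cytokine of the interleukin 6 family, was the most like both SAA1 (0.9893) and SAA2 (0.9912). SERPINA1 was most like ANXA6 (0.9979), SERPINA3 most like ZC3H6 (0.9896), CFB most like MMRN2 (0.9769) and S100A9 most like GALNT1 (0.9912).

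For LCN2, C3, SAA1, CFB and S100A9, the nearest protein-coding genes with a level of at least 1 TPM are given for comparison. PTGES2, 20609 bases to the left of LCN2, had means of 135 TPM in Ctrl, 96.6 TPM in MLN, 110 TPM in shARF and 77.7 TPM in Both. CIZ1, 7798 bases to the right of LCN2, had means of 63.3, 83.6, 64.1 and 65.7 TPM in the same order. TRIP10, 7363 bases to the right of C3, had means of 78.4, 128, 40.3 and 91.2 TPM. CD70, 73601 bases to the left of C3, had means of 391.5, 362.2, 167.2 and 232.9 TPM. These neighbours of LCN2 and C3 stayed within an order of magnitude over the 4 conditions, a smaller range than those of LCN2 and C3 themselves. The neighbour to the left of SAA1 is SAA2-SAA4, given above. HPS5, 8691 bases to the right of SAA1, had means of 25.6, 42.7, 27.6 and 45.5 TPM, and NELFE, 1 base to the right of CFB, had 124, 158, 137 and 150 TPM. ZBTB12, 43564 bases to the left of CFB, had 22.45, 3.01, 27.3 and 2.43 TPM, lower in both conditions with MLN4924. S100A6, 173576 bases to the right of S100A9, had 3289, 1403, 3319 and 966 TPM, lower with MLN4924 and nearly alike in Ctrl and shARF. S100A11, 1309947 bases to the left of S100A9, had 2099, 2120, 1544 and 1553 TPM.

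The counts of the related lists stand beside these shares of all genes tested. In MLN vs Ctrl 32.2% were called higher and 29.4% lower, and in shARF vs Ctrl 21% and 20.4%. The shares were 11.8% and 20.6% in Both vs MLN, and 28.3% and 32.8% in Both vs shARF. No list was tested as a set. The other genes of the complement system were 23, of which 15 passed the filter. In MLN vs Ctrl, 8 of the 15 were called higher and 5 lower (median 0.48), and in shARF vs Ctrl 7 were called higher and 1 lower (median 0.74). C3 and CFB were lower in both comparisons, and of the other complement genes CFD, C5, C1R, CD46 and CD59 were called lower in MLN vs Ctrl. CLU, the complement-binding chaperone clusterin, had means of 99.0 TPM in Ctrl and 336 TPM in MLN, a log2 difference of 1.76 ± 0.13 (adjusted p = 9.34e-05). CFD, the protease that cleaves factor B, was 13.7 TPM in Ctrl and 3.596 TPM in MLN (log2 difference −1.92, adjusted p = 0.000373). C5, which follows C3 in the cascade, fell by 1.19 in MLN vs Ctrl (adjusted p = 8.13e-05) and rose by 1.60 in shARF vs Ctrl (adjusted p = 5.28e-05). CD55, a membrane inhibitor of the C3 convertases and the most abundant of those named, rose from 485 to 679 TPM in MLN vs Ctrl (log2 difference 0.48, adjusted p = 0.000434) and to 862 TPM in shARF (0.83, adjusted p = 2e-04). C1S and C1R, the proteases of the classical pathway, moved in opposite directions in MLN vs Ctrl, C1S rising by 1.56 (adjusted p = 0.000338) and C1R falling (−1.10, adjusted p = 0.0116). In shARF vs Ctrl they rose by 0.65 (adjusted p = 0.0238, lost under 6 of 14 alternative settings) and 1.38 (adjusted p = 0.00155), both at a few TPM. Of the 15, 4 were called higher and 1 lower in Both vs MLN, and 4 higher and 4 lower in Both vs shARF.

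The other acute-phase genes were 17, of which 7 passed the filter, with 3 called higher and 2 lower in MLN vs Ctrl and 3 called lower in shARF vs Ctrl. CP, the copper carrier ceruloplasmin, fell in MLN vs Ctrl, from 47.7 to 0.855 TPM (log2 difference −5.68, adjusted p = 7.99e-06), and in Both vs shARF (−4.54, adjusted p = 1.5e-06), but its mean of 44.02 TPM in shARF was close to that in Ctrl. PTX3, a pentraxin, fell by 1.45 in MLN vs Ctrl (adjusted p = 1.8e-05) and by 3.18 in shARF vs Ctrl (adjusted p = 0.000125). TNFAIP6, a hyaluronan-binding protein, rose by 1.18 in MLN vs Ctrl (adjusted p = 0.000188) and fell by 1.95 in shARF vs Ctrl (adjusted p = 0.000268). FGB, a fibrinogen chain, rose from 0.318 to 2.67 TPM in MLN vs Ctrl (adjusted p = 0.000786). Of the 7, 2 were called higher and 2 lower in Both vs MLN, and in Both vs shARF 4 higher and 1 lower. Of the 9 other clade A serpins, 1 passed the filter (SERPINA6), and it was called only in Both vs shARF, where it fell by 0.97, a call that was lost with either other pseudocount.

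Of 17 other epithelial defence genes, 6 passed the filter, with 2 called higher and 4 lower in MLN vs Ctrl and 4 called lower in shARF vs Ctrl. PI3, the elastase inhibitor elafin, had 22857, 20330 and 23717 TPM in Ctrl, 3048, 3776 and 3299 TPM in MLN, 249, 297 and 273 TPM in shARF and 2022, 1864 and 1906 TPM in Both. Like LCN2, PI3 was highest in Ctrl and lower with the drug (−2.73 ± 0.18, adjusted p = 5.52e-05) or the hairpin (−6.35 ± 0.10, adjusted p = 1.3e-05), but it rose in Both vs shARF by 2.82 (adjusted p = 3.15e-06). SLPI, another protease inhibitor, rose by 0.40 in MLN vs Ctrl (adjusted p = 0.0132) and fell by 2.03 in shARF vs Ctrl (adjusted p = 5.49e-05). LYZ, the lysozyme gene, fell by 2.84 in MLN vs Ctrl (adjusted p = 3.19e-05), with means of 43.6 TPM in Ctrl and 44.04 TPM in shARF. TCN1, the vitamin B12-binding protein haptocorrin, fell by 3.97 in MLN vs Ctrl (adjusted p = 9.65e-07) and by 1.04 in shARF vs Ctrl (adjusted p = 0.000125). CAMP, which encodes an antimicrobial peptide, rose from 0.344 to 4.96 TPM in MLN vs Ctrl (adjusted p = 0.00432). In Both vs MLN 5 of the 6 were called lower and none higher, and in Both vs shARF 3 were called higher and 2 lower.

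Of 15 other S100 genes, 12 passed the filter, and in MLN vs Ctrl 6 were called higher and 3 lower, in shARF vs Ctrl 4 higher and 3 lower. S100P rose by 6.25 in MLN vs Ctrl (15.3 to 1181 TPM, adjusted p = 2.78e-06) and S100A14 by 4.76 (2.59 to 73.2 TPM, adjusted p = 8.09e-06), both opposite to S100A9. With the hairpin S100P rose by 1.43 (adjusted p = 0.000193) and S100A14 by 1.20 (adjusted p = 0.00289), whereas S100A3 fell by 1.99 (adjusted p = 0.000343) and S100A2 fell by 1.35 (adjusted p = 6.21e-05). Beside these 4 genes, S100A9 had a difference of 3.47 in shARF vs Ctrl and −1.54 in MLN vs Ctrl. In Both vs MLN none of the 12 was called higher and 8 were called lower, and in Both vs shARF 5 were called higher and 4 lower.

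Of the 16 inducing cytokines and their receptors, 15 passed the filter, with 8 called higher and 3 lower in MLN vs Ctrl and 3 higher and 10 lower in shARF vs Ctrl. IL1B had 2878, 2603 and 2822 TPM in Ctrl, 282, 296 and 296 TPM in MLN, 17.5, 21.3 and 17.8 TPM in shARF, and 5.37, 6.57 and 5.85 TPM in Both. It was in the same order of conditions as LCN2, and fell in MLN vs Ctrl (log2 difference −3.25, adjusted p = 2.05e-06), in shARF vs Ctrl (−7.19, adjusted p = 8.46e-06) and in Both vs shARF (−1.65, adjusted p = 6.19e-05). IL1A, by contrast, rose by 2.12 in MLN vs Ctrl (adjusted p = 1.81e-05), from 11.3 to 49.7 TPM, and fell by 4.12 in shARF vs Ctrl (adjusted p = 0.000132). IL6 rose by 1.67 (adjusted p = 3.04e-05) and TNF by 2.14 (adjusted p = 7.12e-05) in MLN vs Ctrl, and they fell by 4.09 (adjusted p = 0.000454) and 3.82 (adjusted p = 0.000843) in shARF vs Ctrl. The SAA genes and LCN2 were thus lower in MLN while IL1A, IL6 and TNF were higher there and IL1B was lower. LIF had 387, 326 and 345 TPM in Ctrl, 88.2, 91.9 and 92.3 TPM in MLN, 62.6, 60.5 and 65.5 TPM in shARF, and 66.2, 68.4 and 67.4 TPM in Both. In Both vs MLN none of the 15 was called higher and 8 were called lower, and in Both vs shARF 7 were called higher and 2 lower.

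Of 14 transcription factors and inhibitors upstream of these genes, 13 passed the filter, with 7 called higher and 5 lower in MLN vs Ctrl and 2 higher and 9 lower in shARF vs Ctrl. NFKBIZ, a nuclear cofactor of NF-kB at LCN2 and other secondary response genes, had 187, 173 and 151 TPM in Ctrl, 28.2, 30.5 and 32.8 TPM in MLN, 11.2, 9.43 and 10.9 TPM in shARF, and 39.2, 42.9 and 37.8 TPM in Both. It fell in MLN vs Ctrl (−2.48, adjusted p = 1.06e-05) and in shARF vs Ctrl (−4.004, adjusted p = 4.08e-05), and it rose by 1.92 in Both vs shARF (adjusted p = 1.45e-05), where LCN2 was not called. NFKBIA, the NF-kB inhibitor and itself an NF-kB target, fell by 2.71 in MLN vs Ctrl (adjusted p = 5.92e-06) and by 2.37 in shARF vs Ctrl (adjusted p = 6.46e-05). CEBPD fell by 2.65 in MLN vs Ctrl (adjusted p = 0.000125) and by 3.22 in shARF vs Ctrl (adjusted p = 0.000251). CEBPB rose by 1.34 in MLN vs Ctrl (adjusted p = 7.43e-06) and fell by 0.91 in shARF vs Ctrl (adjusted p = 0.00113), and IRF1 rose by 2.56 (adjusted p = 1.67e-05) and 1.24 (adjusted p = 0.000929). CEBPB and CEBPD thus moved in opposite directions in MLN vs Ctrl and both fell in shARF vs Ctrl, where CEBPA, outside the rule for named genes, rose by 1.01 (adjusted p = 0.00215). STAT3 was listed at means of 0.0118 TPM in Ctrl, 0.0056 TPM in MLN, 0 TPM in shARF and 0.0057 TPM in Both. Its listed RNA was thus at or near 0 in every condition, and no difference between conditions can be read from such values. In Both vs MLN 2 of the 13 were called higher and 7 lower, and in Both vs shARF 8 higher and 4 lower.

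Of 17 receptors and partners of the encoded proteins, 9 passed the filter, with 5 called higher and 2 lower in MLN vs Ctrl and 2 called lower in shARF vs Ctrl. C5AR1, the receptor of the fragment C5a, rose from 0.325 to 14.2 TPM in MLN vs Ctrl (log2 difference 5.21 ± 0.40, adjusted p = 0.000102), and C3AR1, the receptor of the C3 fragment C3a, rose from 0.945 to 4.84 TPM (2.27 ± 0.22, adjusted p = 0.000246). In shARF, where C3 was lower still, neither receptor was called against Ctrl, with means of 0.552 TPM for C5AR1 and 0.855 TPM for C3AR1. ITGB2, a chain of complement receptor integrins, fell in MLN vs Ctrl (−2.60, adjusted p = 0.000111) and in shARF vs Ctrl (−3.39, adjusted p = 0.00019). TLR4, a receptor for S100A8 and S100A9 proteins, had a difference of 0.18 in MLN vs Ctrl (adjusted p = 0.0444), a call that was lost under 11 of 14 alternative settings, and fell by 0.48 in shARF vs Ctrl (adjusted p = 0.00306). ELANE and CTSG, which encode neutrophil proteases inhibited by the serpins, FPR2, a receptor of serum amyloid A, and KLK3, a protease bound by the SERPINA3 protein, were at 0 in all 12 libraries. Of the 9, 1 was called higher and 3 lower in Both vs MLN, and in Both vs shARF 2 higher and 3 lower.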

How the data were processed

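The deposited table holds TPM of 43622 genes in 12 libraries. Per the labels and the study's methods, the authors trimmed and mapped the reads to hg38 and quantified them on an Ensembl GRCh38 annotation (release 112) in CLC Genomics Workbench 23.0.5. Every column sums to 1000000, so depth is not known, and strandedness is not given in the sources used here. Libraries were grouped by the conditions in the labels and column names.

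From the TPM, log2(TPM + 0.1) was fitted with limma 3.58.1 under R 4.3.3, with eBayes and its trend option, over 19932 genes that averaged 0.1 TPM or more. The 6 libraries of each of the 4 pairwise comparisons were fitted alone and the 12 libraries together for the difference of responses. A gene was called at a Benjamini-Hochberg adjusted p below 0.05 over all genes tested. The code was tested on simulated data. Named from each related list were the genes of at least 1 TPM with the 3 largest differences in MLN vs Ctrl or shARF vs Ctrl and the most abundant one, and LIF, SERPINA6, the genes listed at 0, SAA2-SAA4 and the neighbours beside them. The 10 genes and the lists were chosen with earlier results of these data known. Alternatives were pseudocounts of 1 and 0.01, a filter at 1 TPM or none, median-of-ratios scaling, eBayes without trend, 1 fit of all libraries, a replicate block and each library left out. Gene positions are from GENCODE release 44.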

Additional observations from a re-analysis of the deposited data

Results flagged for a closer look

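The response to MLN4924 differed between PC3-shp14ARF and PC3 cells for 5 of the 6 fitted genes not listed at 0 throughout a condition, all but SERPINA1. The call was made on Both vs shARF minus MLN vs Ctrl (limma on 12 libraries, adjusted p below 0.05, log2). Of all genes tested, 11.2% were called above 0 and 17.1% below 0. The value was 4.81 for LCN2, 3.89 for C3, 1.62 for SERPINA3 and 0.96 for CFB, above 0 in each. For S100A9 it was −0.62, a call that was lost under 7 of 19 alternative settings. Because these genes were chosen with the levels known, the values are a description. The SERPINA3 value rests on means of at most 0.042 TPM outside Ctrl and lay between 0.41 and 1.78 over the alternative settings. Its call was lost under 8 of 18. The C3 value is set in part by its low mean of 0.466 TPM in shARF, which left little room for a further fall.

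Among the other complement and receptor genes named, the difference of responses was 0.60 for C1S, a call that was lost under 12 of 19 alternative settings, and 1.58 for ITGB2, and it was −1.63 for C5, −0.85 for CLU and −0.41 for CD55. Acute-phase and epithelial defence genes had 1.14 for CP, 2.003 for PTX3, 2.29 for TNFAIP6, −1.81 for FGB, 0.53 for TCN1, 5.55 for PI3 and 1.34 for SLPI. The S100 genes past the threshold were all below 0, with −1.20 for S100P, −1.26 for S100A14 and −0.55 for S100A6. Cytokines had 1.59 for IL1B, 2.86 for IL1A and 1.97 for IL6. Transcription factors and inhibitors had 4.39 for NFKBIZ, 1.95 for NFKBIA, 2.26 for CEBPD, −1.74 for IRF1 and 0.42 for CEBPB, the last a call that was lost under 13 of 19. PI3 and NFKBIZ thus had values like that of LCN2, but they rose in Both vs shARF, where LCN2 was not called.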

How the results depend on the processing

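Of the values of the 10 genes under alternative settings, 530 kept their direction and side of the threshold, 41 lost the call, 7 gained it and 1 reversed. The reversed one was the difference of responses of SERPINA1, which was not called at 0.14 and was −0.042 without MLN replicate 1, the lowest of a range up to 0.28 when each library was left out. With a pseudocount of 1 it was called, at 0.66. Of the 8 genes fitted, leaving out 1 library left 8 called in MLN vs Ctrl, 8 in shARF vs Ctrl, between 4 and 5 in Both vs MLN (6 with all libraries), between 2 and 3 in Both vs shARF and between 5 and 7 in the difference of responses. The shares over all genes are not given for these fits, so nothing is read from the counts. What the library numbers mean is not stated, so whether shared numbers pair the libraries is unknown. Over all genes tested, the correlations of same-numbered libraries' deviations were between −0.0457 and 0.0222, which cannot exclude a shared culture or batch. With the replicate block, 0 of the 8 were called in shARF vs Ctrl (8 at an unadjusted p below 0.05 by limma, and no gene of the whole table was called), 4 in the difference of responses (7 unadjusted) and 6 in MLN vs Ctrl. Of all 19932 genes tested, 3105 were called in the difference of responses and 5708 in MLN vs Ctrl under the block. The block leaves few residual degrees of freedom in a pairwise comparison. No paired analysis was possible because of fewer than 2 shared numbers in Both vs MLN and Both vs shARF. Counts of the related lists were not recomputed with a library left out or with the block, under which all of them are 0 in shARF vs Ctrl. Under the other settings 11 of these counts moved by over 1.5 times, in the clade A serpins and the receptors and partners. TPM carries no depth, so what depth limits is unknown, and levels under 1 TPM (SERPINA3, PIGR, S100A8, and SAA1, SAA2 and C3 outside the conditions where they are high) depend on the pseudocount.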
